A study of Mus musculus with 27 samples.

Results

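Pth, Gcm2, Casr and Gata3, 4 genes that together mark the parathyroid gland, were described in laser-captured mouse thyroid tissue. They were taken by name from a deposited count table of 54532 gene rows and followed through all 27 libraries. The study asked how the transcriptome of thyroid proliferative lesions that arose after radiation differs from normal thyroid. The study compared 3 kinds of tissue, with 9 libraries each. PL was tissue of proliferative lesions from exposed mice. Normal-looking tissue of the same 9 mice, taken where histologic abnormalities lay adjacent, was called NT, so that each PL library had an NT library from its own mouse. NCT was normal thyroid of 9 other mice that were not exposed. Each group held 6 females and 3 males. Dose, strain, age and the time after exposure are not in the labels. Every exposed mouse bore a lesion, so exposure and lesion cannot be told apart in the comparison of either NT or PL with NCT.

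The parathyroid glands lie on or within the thyroid, and their chief cells keep blood calcium constant. Casr encodes the calcium-sensing receptor, a G protein-coupled receptor on the chief cell surface that holds back hormone release when calcium is high. Pth encodes the parathyroid hormone itself, which raises calcium through bone and kidney. Gcm2 encodes the transcription factor on which formation of the mouse parathyroid depends, and Gata3 encodes a zinc finger factor that acts with it in the pharyngeal pouch from which the gland arises. Gcm2 and Pth are largely restricted to the parathyroid, whereas Casr is also known from thyroid C cells and kidney and Gata3 from T cells, innate lymphocytes and several epithelia.

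All 4 genes lie on the minus strand of GRCm38. Pth spans chr7:113385580-113388570 with 3 exons in 1 annotated transcript, Gcm2 chr13:41101427-41111035, Casr chr16:36493696-36562141 and Gata3 chr2:9857078-9890034. No annotated gene overlaps Pth or Gcm2. Exons of Gata3 are overlapped by the antisense gene Gm13256, which had 0 counts, and by 9230102O04Rik, which had 19 counts over all libraries. The start regions of the 4 genes are shown because the genes were followed together and the GATA family to which Gata3 belongs reads a short known motif. Each run gives 250 bases before to 50 bases after the RefSeq start on GRCm38.p6, in the gene's own direction, on the minus strand of chr7:113388524-113388823, chr13:41109939-41110238, chr16:36562085-36562384 and chr2:9878551-9878850 in the order printed. Capitals mark the forms searched as GATA motifs, which are AGATAA or AGATAG or TGATAA or TGATAG, read on either strand.
Pth: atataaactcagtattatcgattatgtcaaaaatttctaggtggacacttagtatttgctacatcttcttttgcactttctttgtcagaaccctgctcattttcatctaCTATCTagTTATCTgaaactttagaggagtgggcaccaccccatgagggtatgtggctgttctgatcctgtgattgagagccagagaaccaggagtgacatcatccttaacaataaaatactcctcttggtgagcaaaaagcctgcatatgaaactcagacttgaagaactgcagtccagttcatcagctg
Gcm2: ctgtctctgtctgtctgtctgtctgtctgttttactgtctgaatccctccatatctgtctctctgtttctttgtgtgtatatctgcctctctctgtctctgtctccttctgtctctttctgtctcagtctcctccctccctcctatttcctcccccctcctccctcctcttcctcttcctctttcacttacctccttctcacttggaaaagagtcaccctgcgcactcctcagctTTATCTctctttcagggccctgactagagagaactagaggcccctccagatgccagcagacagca
Casr: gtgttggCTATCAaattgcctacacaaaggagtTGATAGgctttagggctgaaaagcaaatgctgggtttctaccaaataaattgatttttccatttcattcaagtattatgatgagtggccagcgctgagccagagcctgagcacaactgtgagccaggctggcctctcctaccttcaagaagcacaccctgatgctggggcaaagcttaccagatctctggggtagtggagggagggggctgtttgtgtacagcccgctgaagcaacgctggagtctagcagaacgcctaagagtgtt
Gata3: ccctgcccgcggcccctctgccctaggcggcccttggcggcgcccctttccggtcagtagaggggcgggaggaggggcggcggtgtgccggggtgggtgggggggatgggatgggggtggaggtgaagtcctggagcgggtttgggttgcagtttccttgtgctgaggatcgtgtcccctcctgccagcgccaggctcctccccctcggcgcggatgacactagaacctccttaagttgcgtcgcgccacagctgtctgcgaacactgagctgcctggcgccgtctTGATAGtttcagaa

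Every one of the 4 windows held at least 1 GATA match. Pth had 2, both on the opposite strand, at positions -141 and -133 from the start. Gcm2 had 1 on the opposite strand at position -15. Casr had 2, at position -243 on the opposite strand and at position -217 on its own strand. Gata3 had 1 on its own strand at position 36. Such a match was found in 29.8% of all 32851 RefSeq windows of this length. None of the 4 windows held ATGCGGG (the Gcm factor motif, in 1.41% of all windows), TGACG (a core of the cAMP response element, 20.8%) or CCAAT (the NF-Y motif, 37.4%) on either strand. A match says only that the letters are there. The windows differed in base composition, with 40.3% G and C in Pth, 50.7% in Gcm2, 49.7% in Casr and 67.3% in Gata3, against a median of 52.7% over all windows.

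The libraries held 2923851 to 14148601 counts, with medians of 6479022 in PL, 7220957 in NT and 4622595 in NCT. Thyroid follicular markers stood at a sum of 12870 to 63330 CPM (counts scaled to a common library size) in all 27 libraries, so that each held thyroid transcripts. The 4 members and Chga, a hormone granule gene, gave a parathyroid sum. It exceeded the follicular sum in PL replicate 2 (46280 beside 36860 CPM), NT replicate 7 (33440 beside 26620 CPM) and NT replicate 9 (35840 beside 13580 CPM). In all others the follicular sum was the larger. Markers of thymus, which can lie beside the parathyroid, summed to between 4.07 and 15.8 CPM. In 5 libraries the tissue held Pth above 2000 CPM, namely replicate 2 of PL, replicates 7 and 9 of NT and replicates 5 and 8 of NCT. In bulk tissue, fewer cells of a type and less RNA per cell cannot be told apart.

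Pth had counts in all 27 libraries, though whether its low counts arose in the captured tissue was not tested. In PL it ranged from 34.9 to 27677 CPM with a median of 56.3, in NT from 36.9 to 25924 CPM with a median of 173, and in NCT from 56.5 to 4488 CPM with a median of 331. The lesion value rested on 1 library. PL replicate 2 held 174496 Pth counts and 98.5% of the summed PL level, while the other 8 PL libraries stayed between 34.9 and 89.8 CPM. In NT, replicates 9 and 7 had 25924 and 18232 CPM and the other 7 libraries at most 253 CPM. In NCT the values were spread more evenly, with 4488 CPM in replicate 5, 2427 in replicate 8, 843 in replicate 7, 608 in replicate 1 and 331 in replicate 6. The ranges of the 3 groups overlapped.

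High Pth did not recur within a mouse. Mouse 2 had 27677 CPM in its PL library and 173 CPM in its NT library. The reverse was seen in mouse 7, with 56.3 CPM in PL and 18232 CPM in NT, and in mouse 9, with 47.1 CPM in PL and 25924 CPM in NT. Over the 9 pairs Pth was lower in PL in 5 mice and higher in 4, with differences from -9.10 to 7.32 on the log2 CPM scale.

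Gcm2 was the scarcest member. In PL it ranged from 0 to 28.2 CPM with a median of 0, in NT from 0 to 31.9 CPM with a median of 0.143, and in NCT from 0 to 7.80 CPM with a median of 0.452. No count was found in 7 of 9 PL, 4 of 9 NT and 3 of 9 NCT libraries, where 3 counts would have been worth 0.200 to 1.36 CPM in the 27 libraries. PL replicate 2 had 178 counts and PL replicate 9 had 3, which were all the Gcm2 counts in lesions. NT replicates 9 and 7 had 272 and 160 counts, against at most 2 in the other NT libraries. In NCT, 64 counts fell in replicate 5 and 20 in replicate 8, with at most 7 elsewhere. The 5 libraries with the most Gcm2 were thus the 5 with the most Pth, and the groups overlapped.

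Casr had a count in every library, though only 1 in PL replicates 4 and 8. It had 2 in PL replicate 7, NT replicate 3 and NCT replicate 7. In PL it ranged from 0.174 to 53.5 CPM with a median of 0.596, in NT from 0.133 to 44.4 CPM with a median of 2.65, and in NCT from 0.498 to 10.5 CPM with a median of 3.59. Its highest values were in the libraries with high Pth, at 53.5 CPM in PL replicate 2, 44.4 and 34.9 CPM in NT replicates 7 and 9, and 10.5 and 9.09 CPM in NCT replicates 5 and 8. Below them came libraries with little Pth, such as NCT replicate 2 with 7.01 CPM and NT replicate 4 with 6.31 CPM. Casr was lower in PL than in NT in 6 of 9 mice, and all groups overlapped.

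Gata3 was also found in every library. In PL it ranged from 0.696 to 155 CPM with a median of 3.82, in NT from 1.72 to 156 CPM with a median of 4.64, and in NCT from 1.35 to 50.7 CPM with a median of 5.68. The 3 largest values, 155 CPM in PL replicate 2 and 156 and 118 CPM in NT replicates 7 and 9, again belonged to libraries with high Pth. PL replicate 4 stood apart from this order, with 34.6 CPM of Gata3 beside 89.8 CPM of Pth, no Gcm2 count and 0.190 CPM of Casr. Markers of T cells and innate lymphocytes, which use Gata3, summed to 20.4 CPM in that library, within the range of 11.6 to 64.6 CPM over PL. Its sums of basal and squamous (29.3 CPM), adipocyte (1175 CPM) and C cell markers (381 CPM) were the highest of PL, and their part in its Gata3 level was not tested. Gata3 was lower in PL in 7 of 9 mice, and the groups overlapped.

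**Figure D1:**
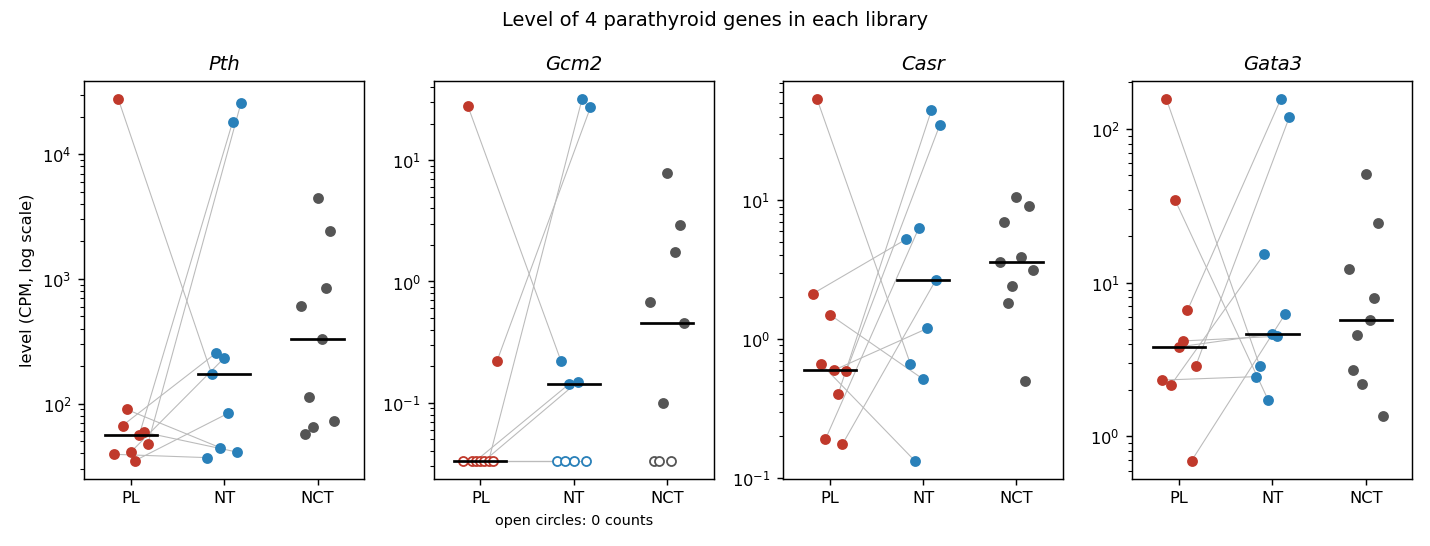
Level of Pth, Gcm2, Casr and Gata3 in CPM on a log scale in 9 PL, 9 NT and 9 NCT libraries, with a point per library, a black bar at the group median and a grey line joining PL and NT of 1 mouse. Open circles on the lowest line are libraries with 0 counts, and a median of 0 is drawn on that line. PL replicate 2 (27677 CPM of Pth) and NT replicates 7 and 9 stand above all other exposed libraries, and the lines cross because their partners from the same mice are low.

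The order of the groups depended on the measure of level. By the median all 4 genes ran PL, NT, NCT from low to high. By the mean Pth stood at 3123 ± 9208 CPM in PL, 5002 ± 9870 CPM in NT and 1001 ± 1510 CPM in NCT (SD, n = 9 each), so that NCT was lowest. The same order of means held for Gcm2 (3.16 ± 9.40, 6.63 ± 13.1 and 1.52 ± 2.56 CPM), Casr (6.63 ± 17.6, 10.7 ± 16.7 and 4.66 ± 3.42 CPM) and Gata3 (23.6 ± 50.4, 34.6 ± 58.9 and 12.4 ± 16.1 CPM), given for PL, NT and NCT. No neighbours in either order differed beyond the spread of their libraries.

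No member passed the threshold between lesions and their paired normal tissue, by edgeR's quasi-likelihood test with the mouse as a block and Benjamini-Hochberg adjustment over all genes tested. The log2 fold change of PL over NT was -1.27 for Pth (SE 1.64, adjusted p 0.756) and -0.99 for Gata3 (SE 1.46, adjusted p 0.792). Gcm2 and Casr did not pass the filter on low counts in this comparison. Kept beside it, they had log2 fold changes of -4.28 (SE 3.34, edgeR adjusted p 0.588) and -1.81 (SE 1.51, edgeR adjusted p 0.595). Thus 0 of 4 members passed, against 3.08% of the 14461 genes tested (1.76% higher and 1.31% lower). Without mouse 2, whose lesion held the high Pth library, Gcm2 had a log2 fold change of -6.96 with an edgeR adjusted p of 0.0170, and the other 3 members still missed the threshold, beside 1.77% of the 14515 genes tested that passed. The counts behind that value were 3 in 8 PL libraries and 434 in 8 NT libraries, a depth-adjusted ratio of 0.00734 with a 95% interval of 0.00151 to 0.0216 that covers counting error only. Of the 434 counts, NT replicates 7 and 9 held all but 2. Mouse 2 was singled out by its own high values, so this p describes how far 1 mouse carried the comparison.

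In NT against NCT no member passed either. The log2 fold change of NT over NCT was 2.31 for Pth (SE 1.48, edgeR adjusted p 0.573), 1.14 for Casr (SE 0.897, adjusted p 0.654) and 1.41 for Gata3 (SE 0.988, adjusted p 0.614). Gcm2, which did not pass the filter, had 1.98 (SE 1.40, edgeR adjusted p 0.618). None of the 4 passed, beside 0.0277% of the 14447 genes tested (0.00692% higher and 0.0208% lower). Without the libraries over 2000 CPM of Pth the values were -1.27 for Pth, -2.26 for Gcm2, -0.44 for Casr and 0.04 for Gata3. On mean log2 CPM, which weighs each library alike, NT minus NCT was -0.12 for Pth, 0.08 for Gcm2, -0.13 for Casr and 0.45 for Gata3, with exact permutation p of 0.937, 0.949, 0.881 and 0.640. The leading digits of the mouse numbers, which could mark a batch, as a covariate gave -0.44 for Pth, -0.25 for Gcm2, 0.48 for Casr and 0.29 for Gata3 (edgeR adjusted p 0.998 or more).

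Lesions against unexposed tissue gave fold changes that turned on a single library. With all 18 libraries the log2 fold change of PL over NCT was 1.63 for Pth (SE 1.55, edgeR adjusted p 0.586), 0.47 for Casr (SE 0.993, adjusted p 0.836) and 0.86 for Gata3 (SE 0.9999, adjusted p 0.669). Gcm2, kept beside the filter, had 0.92 (SE 1.38, edgeR adjusted p 0.754). Hence 0 of 4 members passed, against 10.1% of the 14234 genes tested (5.45% higher and 4.62% lower). Without PL replicate 2 all 4 signs turned, and 10.2% of 14404 genes passed. Pth then had a log2 fold change of -4.22 (edgeR adjusted p 0.0102), Gcm2 of -4.69 (edgeR adjusted p 0.00990) and Casr of -2.52 (edgeR adjusted p 0.00667), while Gata3 had -0.86 (edgeR adjusted p 0.569). Leaving out this library is a choice made by the outcome itself, so these values describe how far 1 library carried the comparison. Gcm2 counts were then 3 in 8 PL libraries and 97 in 9 NCT libraries, a ratio per total count of 0.0266 (95% interval 0.00540 to 0.0801, counting error only).

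Other treatments of the libraries turned the signs as well, DESeq2 only while it replaced far-off counts. The Wald test of DESeq2, which replaces counts that lie far from their group, put PL below NCT with log2 fold changes of -2.91 for Pth (adjusted p 0.000317), -2.31 for Casr (adjusted p 0.000607), -3.63 for Gcm2 (adjusted p 0.0660) and -0.83 for Gata3 (adjusted p 0.569). With that replacement switched off it gave 1.63, 0.49, 1.03 and 0.90 for the same genes, and no p. With the mouse number series as a covariate edgeR gave -2.42 for Pth (adjusted p 0.576), again with nothing added by NCT replicates 1 to 3. Mean log2 CPM of Pth was 6.71 in PL and 8.40 in NCT, a difference of -1.69 with an exact permutation p of 0.210. For Casr the difference was -1.42 with an exact permutation p of 0.0946, the smallest of the 12 such tests, all of which had Benjamini-Hochberg adjusted p of 0.860 or more. In the 3 comparisons 0 of 4 members had an unadjusted edgeR p under 0.05 with all libraries, beside 17.6% of all genes tested in PL against NT, 11.6% in NT against NCT and 23.6% in PL against NCT. DESeq2 called 0 of 4 in PL against NT beside 7.29% of the 18653 genes it tested, and 0 in NT against NCT, where it gave no adjusted p for Gcm2, beside 0.848% of 17682. With far-off counts replaced, it called 2 in PL against NCT beside 10.9% of 19578. For Pth, Gcm2 and Casr alike, 8 of the 9 PL libraries lay below the NCT median, against 6 of 9 for Gata3.

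**Figure D2:**
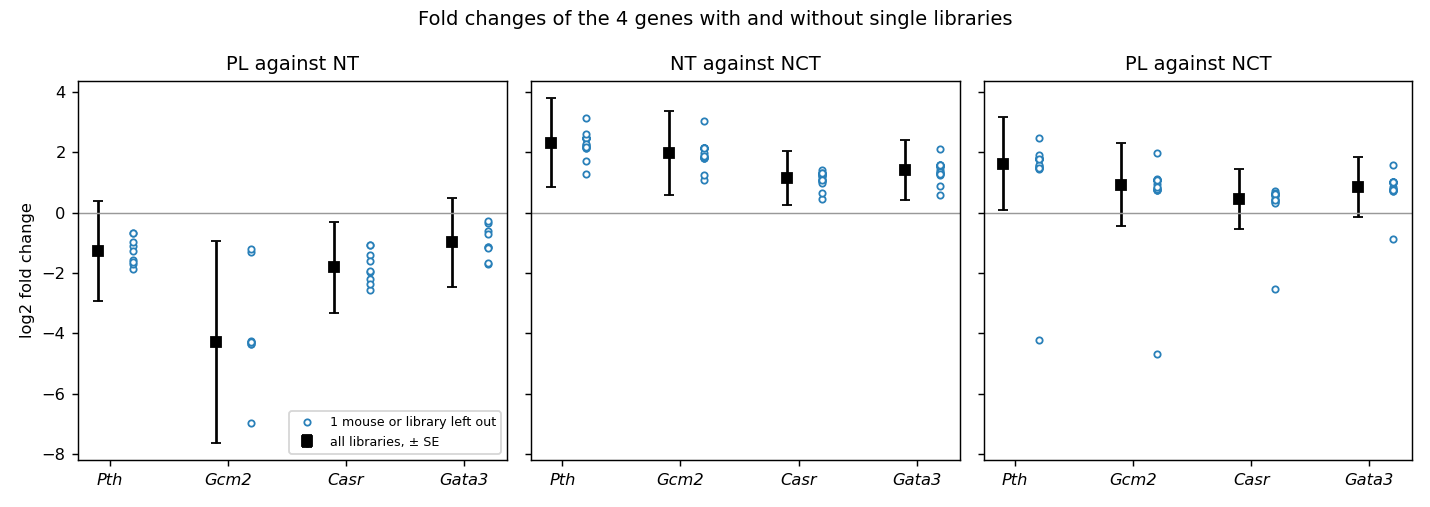
Log2 fold changes of the 4 genes for PL against NT, NT against NCT and PL against NCT. Black squares are edgeR estimates from all libraries with SE, and open circles are the estimates with 1 mouse (PL against NT) or 1 library left out. In PL against NCT the circle far below the rest is the fit without PL replicate 2, at -4.22 for Pth.

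Whether the other 3 genes followed Pth was measured within groups, since PL and NT share mice. By the rule that a gap of over 33.3% of the range of log2 Pth separates clusters, PL split into 8 libraries and replicate 2, and NT into 7 libraries and replicates 7 and 9. NCT formed 1 continuous set of 9, with a largest gap of 24.7%. Correlations were therefore computed over 8 PL, 7 NT and 9 NCT libraries, 9 relations in all, with two-sided exact permutation tests.

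Gata3 followed Pth closely in NCT, with Pearson's r of 0.961 (exact permutation p 5.79e-05, adjusted 0.000521) and Spearman's rho of 0.917 (exact p 0.00131). Without replicates 5 and 8, which lay farthest from the median of Pth, r was 0.893 (exact p 0.0103, n = 7). Gcm2 also rose with Pth in NCT, at r = 0.885 (exact p 0.00157, adjusted 0.00707) and rho = 0.814 (exact p 0.0120), but it no longer passed without both libraries (r = 0.668, exact p 0.102, n = 7). Without replicate 5 alone r was 0.815 (exact p 0.0152), and without replicate 8 alone it was 0.862 (exact p 0.00670). Casr had r = 0.306 with Pth in NCT (exact p 0.427), and -0.516 without those libraries (exact p 0.249). Differences between these correlations were not tested.

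In the 7 NT libraries Casr ran against Pth, with r = -0.947 (exact permutation p 0.00377, adjusted 0.0113) and rho = -0.893 (exact p 0.0123). Without replicates 3 and 5 r was -0.904 (exact p 0.0333, n = 5). These are small counts, from 2 to 44 Casr counts per library. In the 8 lower PL libraries Casr had r = -0.684 (exact p 0.0624) with 1 to 21 counts, over Pth levels of only 34.9 to 89.8 CPM. Gata3 had r = 0.543 in NT (exact p 0.211) and 0.451 in PL (exact p 0.259), and Gcm2, nearly without counts there, had 0.015 in NT (exact p 0.971) and -0.125 in PL (exact p 0.875).

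Counts of each gene per 1000 Pth counts were set side by side for libraries with high and low Pth, a split made on Pth itself. Gcm2 stood at 1.20 per 1000 Pth counts in the 5 libraries with high Pth (95% interval 1.11 to 1.29, counting error only) and at 0.942 in the other 22 pooled (0.576 to 1.46, from 20 Gcm2 counts). The pooled intervals overlapped, and over the single high libraries Gcm2 ranged from 1.02 to 1.75. Casr stood at 1.83 per 1000 (1.72 to 1.94) in the 5 libraries and at 12.8 (11.3 to 14.4) in the other 22. Gata3 stood at 6.10 per 1000 (5.90 to 6.30) in the 5 libraries and at 43.5 (40.8 to 46.4) in the other 22. By single library Casr ran from 1.35 to 3.75 per 1000 Pth counts in the 5 and from 0.526 to 142 in the other 22, and Gata3 from 4.57 to 11.3 in the 5 and from 9.45 to 386 in the other 22. Both spans overlapped, and since Pth is the divisor as well as the split, no direction is read from them.

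**Figure D3:**
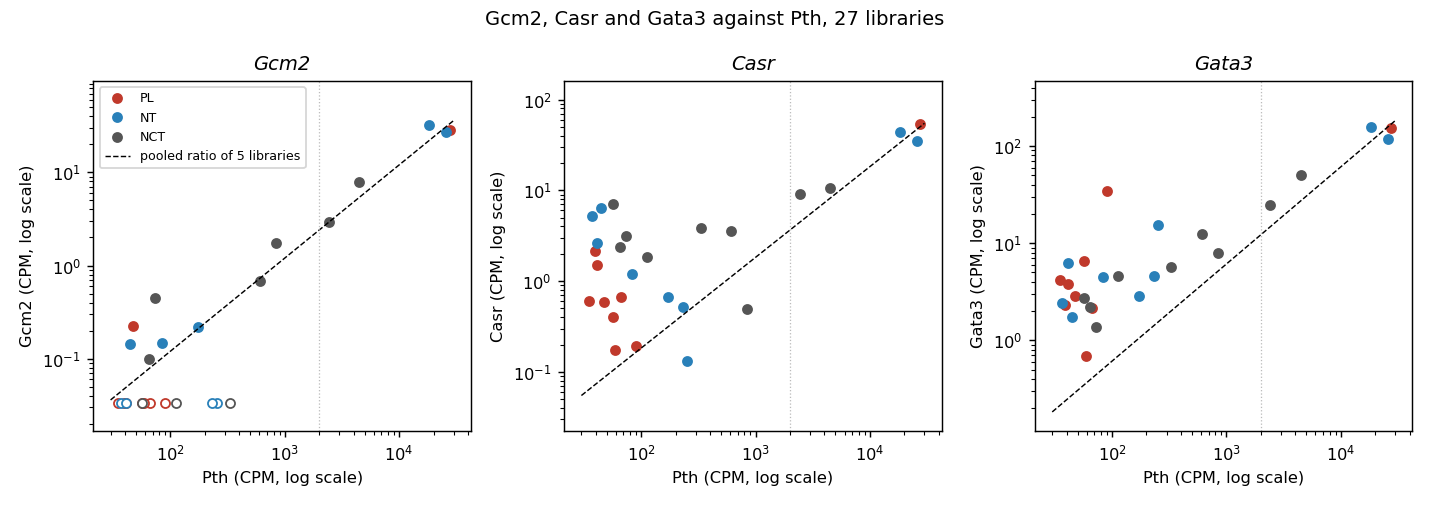
Gcm2, Casr and Gata3 against Pth in 27 libraries, both in CPM on log scales, with PL in red, NT in blue and NCT in grey. Open circles are libraries with 0 counts, the dashed line is the ratio to Pth pooled over the 5 libraries right of the dotted line at 2000 CPM. Gcm2 lies near or above the line where it was detected, but with little Pth a single count already lies there. Such points therefore do not show a shared ratio. NT replicate 3, with 0 Gcm2 beside 3806 Pth counts, had an upper 95% limit of 0.969 per 1000. Casr and Gata3 lie above their lines in most libraries with low Pth.

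Casr was set beside markers of thyroid C cells, the calcitonin cells that also carry the calcium-sensing receptor. No correlation with them was computed. The summed level of 8 C cell markers ran from 61.7 to 381 CPM in PL. It ran from 351 to 5789 CPM in NT and from 772 to 7427 CPM in NCT. The edgeR test put 5 of the 8 lower in PL than in NT, beside 1.31% of all genes tested. In PL against NCT it put 5 of 8 lower and 1 higher, beside 4.62% lower and 5.45% higher of all genes tested. No C cell marker was at 0 throughout a group. Among the NT libraries with lower Pth, replicates 4, 1 and 8 had the most Casr, with 6.31, 5.24 and 2.65 CPM, and they also had the largest C cell sums of those 7, at 3772, 1441 and 5789 CPM. Replicate 3 had 0.133 CPM of Casr and a C cell sum of 1107 CPM. In NCT, replicate 7 was lowest in both, with 0.498 CPM of Casr and a sum of 772 CPM. NCT replicate 3 had the largest C cell sum of all, 7427 CPM, beside 1.82 CPM of Casr. PL replicate 4 had the largest sum of its group, 381 CPM, beside 0.190 CPM of Casr. PL replicate 2 had the most Casr of all beside a C cell sum of only 130 CPM. The part of C cells in the Casr values of the comparisons was not tested.

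**Figure D4:**
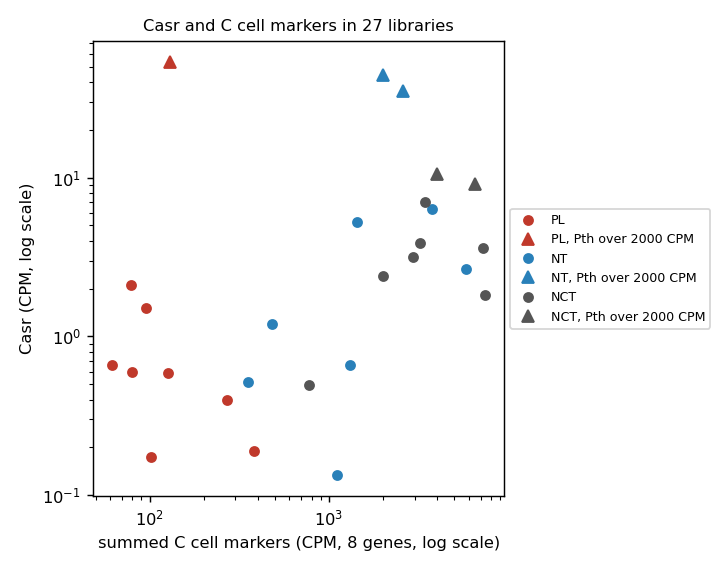
Casr against the summed level of 8 C cell markers in each of 27 libraries, both in CPM on log scales, with PL in red, NT in blue and NCT in grey. Triangles are the 5 libraries with Pth above 2000 CPM. PL libraries lie at C cell sums of 61.7 to 381 CPM, left of most NT and all NCT libraries, and the PL triangle has the highest Casr of all.

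Other cell types were measured beside the members as well. Basal and squamous epithelial markers summed to 2.26 to 29.3 CPM in PL, 7.34 to 417 CPM in NT and 12.9 to 101 CPM in NCT. Airway markers summed to 26.8 to 449 CPM in PL, 111 to 6241 CPM in NT and 338 to 6112 CPM in NCT. Adipocyte markers summed to 21.0 to 1175 CPM in PL, 136 to 785 CPM in NT and 373 to 4563 CPM in NCT. Sums of endothelial markers lay between 340 and 680 CPM in every library. Among thymic markers Rag1 was at 0 in all PL and all NCT libraries. The part of these cells in the member values was not tested.

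The genes whose log2 CPM ran most like Pth over the 27 libraries were ranked by Pearson's r among 15232 other genes, as a description with no test, since PL and NT share mice and 5 libraries set most of the range. Chga, which encodes chromogranin A of the hormone granules, came first with r = 0.992, followed by the protease inhibitor gene Spink8 (0.984), the crystallin gene Cryba2 (0.971), Kl (0.963), which encodes the FGF23 co-receptor Klotho, and the tetraspanin gene Tspan6 (0.941). Rhcg, an ammonium transporter gene (0.930), Efna5, an ephrin gene (0.912), Fam222a (0.902), Ints6l (0.901) and Rapgef5 (0.898) completed the first 10. Of these 10, 8 were among the first 100 genes without the 5 libraries, with 0.965 for Chga, 0.921 for Spink8, 0.817 for Cryba2 and 0.747 for Kl. Ints6l (0.502) and Rapgef5 (0.304) were not. The median r over all genes was 0.011.

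The members took unequal places in that order. Gata3 came 15th among all genes with r = 0.885 and Casr 68th with 0.703, while Gcm2, which failed the filter over the 27 libraries, would have stood 5th with 0.945. Without the 5 libraries Gcm2 had r = 0.600, Gata3 0.487 and Casr -0.17. Gcm2 in turn was most like Chga (0.950), Tspan6 (0.949), Pth (0.945), Kl (0.936) and Spink8 (0.926). Gata3 was most like Lancl1 (0.887), Pth (0.885), the inositol phosphate kinase gene Ipmk (0.883), Ints6l (0.878) and Chga (0.878). Casr was most like Tbc1d1 (0.879), which encodes a Rab GTPase-activating protein, the tenomodulin gene Tnmd (0.851), Gfra4 (0.820), Tspan6 (0.817) and Fam20a (0.815). Without the 5 libraries, 4 of the 5 genes named for Gcm2, 2 of 5 for Gata3 and 2 of 5 for Casr were among the first 100. Casr then had r = 0.671 with Tbc1d1, 0.658 with Gfra4, a co-receptor gene used here as a C cell marker, 0.525 with Tnmd, 0.451 with Fam20a and 0.288 with Tspan6.

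Chga was set against Pth in each library as well. Over the 8 lower PL libraries it stood at 604 to 766 per 1000 Pth counts, and PL replicate 2 lay within that span at 664. The 7 lower NT libraries ranged from 420 to 1362 and NT replicates 7 and 9 had 821 and 376. The NCT libraries ranged from 669 to 903. Across the 27 libraries the level of Pth itself ran from 34.9 to 27677 CPM.

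Wider lists of parathyroid genes were counted in the same edgeR fits at an adjusted p under 0.05. Over all genes tested these fits called 3.08% in PL against NT, 0.0277% in NT against NCT and 10.1% in PL against NCT. In the development list, 7 of 11 genes were tested in each comparison and none passed. The smallest p belonged to Eya1, which encodes a transcriptional coactivator of pharyngeal development, in PL against NT (log2 fold change -2.77, SE 0.759, edgeR adjusted p 0.0697) and to Hoxa3 in PL against NCT (-1.84, SE 0.614, adjusted p 0.0576). The median log2 fold change of the tested list was -0.99 in PL against NT, 0.31 in NT against NCT and -0.50 in PL against NCT, beside 0.00, 0.01 and 0.00 over all genes tested. These medians include Gata3, and the one in PL against NT is the value of Gata3 itself. Without the libraries over 2000 CPM of Pth, edgeR called 0.656% of the 14474 genes tested in PL against NT and 7.92% of 14338 in PL against NCT. Eya1 then passed in PL against NCT with -2.64 (edgeR adjusted p 0.0148), beside -1.53 with all libraries (edgeR adjusted p 0.204). Pax9, a transcription factor gene of the pharyngeal pouches, passed in PL against NT with 0.94 (edgeR adjusted p 0.0348), beside 0.38 with all libraries (edgeR adjusted p 0.807). It was named after its values were seen.

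The list for sensing of calcium, vitamin D and FGF23 had 8 of 11 genes tested in PL against NT and 9 in each of the others. Fgfr1, the receptor gene that Klotho partners, fell in PL against NCT, where it averaged 21.2 ± 7.81 CPM in PL and 34.4 ± 9.94 CPM in NCT (SD, n = 9 each; log2 fold change -0.70, SE 0.213, edgeR adjusted p 0.0350). No other gene of this list passed with all libraries, so 1 of 9 was called in PL against NCT, beside 10.1% of all genes tested. Without the 3 libraries over 2000 CPM of Pth in this comparison, a choice made on Pth itself, Fgfr1 had -0.73 (edgeR adjusted p 0.0756). Casr, also on this list, then had -1.95 (edgeR adjusted p 0.0447), beside 0.47 with all libraries (edgeR adjusted p 0.836). The libraries left out held 53.5, 10.5 and 9.09 CPM of Casr, so its value describes how far they carried the comparison. The median log2 fold change of the list was -0.11 in PL against NT, 0.01 in NT against NCT and -0.18 in PL against NCT. Smallest p in the other comparisons belonged to Rxra, a partner of the vitamin D receptor (PL against NT, -0.30, edgeR adjusted p 0.206), and Ap2s1, an adaptor gene for receptor uptake (NT against NCT, -0.35, edgeR adjusted p 0.434).

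With all libraries, hormone processing and granule genes gave most of the calls, and Pth and Chga were not among them. Of 9 genes tested in PL against NT, Scg5, a chaperone gene for prohormone convertase, rose and the granin genes Chgb and Scg3 fell. Over all genes tested 3.08% passed there. Scg5 averaged 885 ± 408 CPM in PL and 344 ± 191 CPM in NT (log2 fold change 1.43, SE 0.228, edgeR adjusted p 0.0104). Chgb averaged 0.930 ± 1.12 CPM in PL and 7.88 ± 7.57 CPM in NT (-3.37, SE 0.521, edgeR adjusted p 0.00786), and Scg3 averaged 2.38 ± 1.64 CPM in PL and 19.3 ± 13.3 CPM in NT (-3.08, SE 0.486, edgeR adjusted p 0.00937). Against NCT the same 3 genes passed, with log2 fold changes of 1.89, -4.77 and -4.43 and edgeR adjusted p of 0.000250, 8.78e-05 and 1.13e-05. Over all genes tested 10.1% passed in that comparison. In NT against NCT 0 of 10 passed, beside 0.0277% of all genes tested, with the smallest p for Scg3 (-1.33, edgeR adjusted p 0.207). The median of the list was -0.12 in PL against NT, -0.16 in NT against NCT and 0.19 in PL against NCT. Chgb is also one of the 8 C cell markers. Of those 8, edgeR put 5 lower in PL against NT, beside 1.31% of all genes tested. In PL against NCT it put 5 lower and 1 higher, beside 4.62% lower and 5.45% higher. Without the mice with a library over 2000 CPM of Pth, Scg5 had a log2 fold change of 1.26 in PL against NT (edgeR adjusted p 0.110), and Chgb and Scg3 still passed. In PL against NCT, leaving out those libraries, a choice made on Pth itself, gave -2.47 for Pth (edgeR adjusted p 0.0248) and -2.54 for Chga (edgeR adjusted p 0.0186), beside 1.63 and 1.29 with all libraries.

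The remaining lists held few changes. None of the 6 genes tested for Pth mRNA stability passed in any comparison, and in PL against NT the smallest p belonged to Ppp3ca, a calcineurin subunit gene (-0.26, edgeR adjusted p 0.234). Of 4 genes of the hormone family and its receptors only Pth1r, the main receptor gene, passed the filter on low counts, and it was not called (edgeR adjusted p 0.910 in PL against NT, 0.638 in NT against NCT and 0.272 in PL against NCT). Of 5 genes known from parathyroid tumours, Ccnd1, which encodes cyclin D1, rose in PL against NCT, with 260 ± 121 CPM in PL and 136 ± 38.5 CPM in NCT (log2 fold change 0.92, SE 0.224, edgeR adjusted p 0.0112). Thus 1 of 5 was called in PL against NCT, beside 10.1% of all genes tested. Ccnd1 had log2 fold changes of 0.20 in PL against NT (edgeR adjusted p 0.739) and 0.64 in NT against NCT (edgeR adjusted p 0.121). Without the libraries over 2000 CPM of Pth it still passed in PL against NCT (0.96, edgeR adjusted p 0.0185). Cdkn1b, also on this list, passed there with -0.54 (edgeR adjusted p 0.0490), beside -0.43 with all libraries (edgeR adjusted p 0.103). Cdkn1b was named after its values were seen.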

How the data were processed

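RNA of laser-captured thyroid tissue was extracted with a micro kit and made into 3′ end QuantSeq libraries, per the labels' protocols. The deposited table holds whole-number read counts per gene that the authors made, with no normalization. The submitters' processing notes name STAR, featureCounts, DESeq2 and GRCm38, without versions. How strand, annotation release and molecular identifiers were treated, the sources used here do not say.

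Groups and mice came from the labels, so replicates are separate mice and PL and NT pair by mouse. Of 54532 gene rows, 54409 matched GENCODE M21 names, and the 123 others held 0.0251% of counts. No 2 libraries of a group agreed within sampling noise. Paired libraries' deviations from group means correlated at -0.00646 to 0.233; the pairing rests on the mouse.

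Levels are CPM scaled by TMM factors of edgeR over 27 libraries. Fits used edgeR 4.0.16 (R 4.3.3) on the 2 groups compared, with filterByExpr (minimum count 10) and robust dispersion, and calls needed a Benjamini-Hochberg adjusted p under 0.05. Standard errors are approximate, from the fold change and its F statistic. Members that failed the filter were refitted beside it. These refits, the permutation tests of group differences, DESeq2 without outlier replacement and correlations without single NCT libraries were added after seeing the data. log2 CPM has a prior count of 2. Intervals on counts are exact and cover counting error only, and reads may not be independent molecules. Permutation tests (SciPy 1.17.1) were two-sided and exact, with smallest possible p of 0.00391 for group differences over pairs and 4.11e-05 for those between unpaired groups. For correlations it depends on the number of libraries. Fits were tested on simulated data with the same dispersion for every gene, no mouse effect and no far-off library. That test does not cover the spread of the members. Alternatives were DESeq2 1.42.0, DESeq2 size factors, other filters, females only, libraries left out, the mouse number series as a covariate and all 27 libraries.

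Named genes were all 4 members, the called or else lowest-p gene of each wider list, and the genes most like a member, 10 for Pth and 5 for each other. Some genes picked by this rule are not reported here. Members, lists and the 2000 CPM level were chosen with earlier results of these data known. Promoter sequences are from RefSeq.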

Additional observations from a re-analysis of the deposited data

Results flagged for a closer look

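In 6 of the 12 combinations of a member and a group, 1 library lay far above the other 8, judged by its gap to the nearest library as a share of the group's range against Dixon's critical value for 9 libraries. A chance rate of about 1 in 20 groups holds for that value only where levels are normally distributed. CPM is skewed, so the rate does not apply here and the number of flags was not set against chance. The members' values within a library are also not independent. PL replicate 2 was such a library for all 4 genes. It had 27677 CPM of Pth, where the next PL library had 89.8. It had 28.2 CPM of Gcm2 (next 0.222), 53.5 CPM of Casr (next 2.12) and 155 CPM of Gata3 (next 34.6). NCT replicate 5 stood apart for Gcm2, with 7.80 CPM against 2.93 in the next library, and for Gata3, with 50.7 CPM against 24.5. NT was not flagged for any member, and both of its replicates 7 and 9 were high.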

How the results depend on the processing

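Across the settings, the 4 members of PL against NT and Gata3 in NT against NCT (0.04 to 2.11) kept their direction. The other 3 in NT against NCT and all 4 in PL against NCT turned under at least 1 setting. For NT over NCT, the DESeq2 Wald test gave log2 fold changes of -1.51 for Pth and -2.22 for Gcm2. Without libraries over 2000 CPM of Pth, a setting that selects on the outcome, the values were -1.27 for Pth, -2.26 for Gcm2 and -0.44 for Casr. With the mouse number series as a covariate they were -0.44 for Pth and -0.25 for Gcm2, and as differences of mean log2 CPM -0.12 for Pth and -0.13 for Casr. In fits with that covariate NCT replicates 1 to 3 add nothing to the group difference. For PL over NCT, given as Pth, Gcm2, Casr and Gata3, DESeq2 gave -2.91, -3.63, -2.31 and -0.83, females alone (which leaves out PL replicate 2) -4.24, -6.54, -2.17 and -0.63, the number series -2.42, -2.39, -1.78 and -0.77, and mean log2 CPM -1.69, -0.80, -1.42 and -0.20. Without libraries over 2000 CPM of Pth the first 3 were -2.47, -2.75 and -1.95. Leaving out 1 library at a time gave -4.22 to 2.46 for Pth, -4.69 to 1.97 for Gcm2, -2.52 to 0.73 for Casr and -0.86 to 1.57 for Gata3, and only the fit without PL replicate 2 turned the sign. In PL against NT, Gcm2 ran from -6.96 to -1.20 over the mice left out.

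Genes called in PL against NT numbered 445, against 1360 by DESeq2 with or without replaced outlier counts, 832 without a filter, 6 in females, 95 without mice over 2000 CPM of Pth and 137 to 529 with 1 mouse left out. In NT against NCT the 4 calls became 150 by DESeq2 (148 without replacement), 15 without a filter, 1 in females, 13 with the number series, and 0 to 12 with 1 library left out. Without libraries over 2000 CPM of Pth edgeR called 0, with 2354 genes at an unadjusted p under 0.05, and it also called 0 without NT replicate 4 (1546 genes) or NT replicate 6 (1409 genes). In PL against NCT the 1433 calls became 450 in females, 700 with the number series and 1126 to 1655 with 1 library left out. The cause of these shifts was not tested.

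Correlations with Pth changed sign for Gata3 in PL (-0.26) and Casr in NCT (-0.52) without the 2 libraries farthest from the median, and for Gcm2 in NT (-0.01) with a prior count of 0.5. Gcm2 in NCT had 0.67 without those 2. PL against NT without the replicate block, that is without the pairing by mouse, called 402 genes and gave -0.68 for Pth, -1.07 for Gcm2, -0.69 for Casr and -0.56 for Gata3, with no member passing in either fit. With 0 to 4 Gcm2 counts in most libraries, depth limits that gene.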
